A study of Mus musculus with 16 samples.

Results

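The core circadian clock genes were followed through 16 mouse liver arrays: 10 genes were listed by name and 9 of them could be read among the 18820 genes tested. These were Arntl, Clock, Npas2, Per1, Per2, Per3, Cry1, Cry2 and Nr1d2. A gene counted as measured when a probe set of the array carried its symbol alone, and where several did, the one with the highest average level stood for the gene. Nr1d1 was listed as well, but both of its probe sets carry the symbol of the neighbouring gene Thra too, so no value is given for it. Every other listed gene had 1 such probe set except Nr1d2, which had 2 (the one kept averaged 9.04 on the log2 scale and the other 2.97).

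The livers came from male C57Bl/6J wild type mice and from vanin-1 knockout mice labelled with the same strain background, 14 to 16 weeks old, individually housed and kept on chow. The 4 groups, with 4 arrays each, were fed wild type, fed knockout, wild type fasted for 24 h and knockout fasted for 24 h. Vanin-1, encoded by Vnn1, is a pantetheinase, and the knockout is not described further in the labels. Lights were on from 21 h to 9 h, and the fast ran from 9 h to 9 h, which is the start of the dark phase. The protocol gives no separate hour of killing for the fed mice. The labels do not state that each array is a separate animal, so the p-values reflect only how these samples spread, which may be technical.

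In the liver clock, the protein BMAL1 (from Arntl) pairs with CLOCK or NPAS2 and switches on target genes through E-box sequences. Among those targets are the Per and Cry genes, whose proteins return to block the activators, and the nuclear receptor genes Nr1d1 and Nr1d2, whose REV-ERB proteins repress Arntl, Npas2, Clock and Cry1. The activators and the targets therefore peak at different hours of the day, and in liver the timing of meals is known to shift these rhythms.

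Levels are given as log2 intensity after RMA, which spanned 1.26 to 14.19 over the arrays (medians 5.19 to 5.29), so a difference of 1 is a doubling of intensity. Arrays of the same group correlated at 0.989 to 0.996 over the 18820 genes. Vnn1 lay between 6.71 and 11.47 on the wild type arrays and between 3.67 and 4.26 on the knockout arrays, so no array went against its labelled genotype. Hepatocyte markers averaged 12.97 to 13.17 on every array. Markers of other cells were lower, with array means of 7.72 to 9.05 for the macrophage list, 8.88 to 9.34 for the endothelial list, 7.54 to 8.10 for the stellate list, 4.87 to 5.23 for the cholangiocyte list and 4.50 to 4.90 for the lymphocyte list. In fasted against fed liver 4 of 8 macrophage and 4 of 7 stellate markers fell, where 9.88% of all genes did. Of 7 hepatocyte markers Tat rose (log2 difference 0.40) and Ttr fell (-0.17), and 0 of 7 endothelial, 0 of 5 cholangiocyte and 0 of 5 lymphocyte markers passed the test in either direction (limma, averaged over the genotypes). Fasted WT 4 and fed KO 4 stood apart from the rest. Pancreatic acinar markers averaged 9.05 on fasted WT 4 against 3.82 to 4.18 on the other arrays, and acute phase transcripts averaged 12.59 on fed KO 4, with 10.54 on fed KO 1 and 7.82 to 9.94 elsewhere. In bulk liver, fewer cells of a type and less RNA per cell cannot be told apart.

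The start regions of the clock genes are shown because sequence elements through which clock genes are known to be controlled can lie there. RefSeq windows on GRCm38.p6, from 250 bases before to 50 bases after an annotated start, were matched for 9 of the 10 listed genes, all but Per2. They were searched on both strands for the E-box CACGTG, its variant CACGTT, the ROR and REV-ERB half-site AGGTCA, the D-box in the forms TTATGTAA and TTACGTAA, and the cAMP response element TGACGTCA. These genes had 13 windows, since Arntl, Clock and Per1 have several annotated starts. A match was found in at least 1 window of 8 of the 9 genes, Npas2 being the one without. Arntl, Clock and Per1 each had a match at a single start and none at their others. The share of all genes with any of these matches was not computed. A match is a description of letters, not evidence of binding. The windows of the 6 genes that passed a fasting test and held a match are printed 5′ to 3′ on the strand of the gene, in lower case with the matches in capitals:
Arntl (chr7:113207261-113207560, plus strand, the second of 2 annotated starts): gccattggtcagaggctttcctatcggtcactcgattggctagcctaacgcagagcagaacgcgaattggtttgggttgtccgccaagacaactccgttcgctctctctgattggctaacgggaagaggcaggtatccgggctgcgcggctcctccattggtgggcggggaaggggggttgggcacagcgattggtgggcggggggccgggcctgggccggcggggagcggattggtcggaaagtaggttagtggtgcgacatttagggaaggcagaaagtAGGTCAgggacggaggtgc
Clock (chr5:76303453-76303752, minus strand, the third of 3 starts): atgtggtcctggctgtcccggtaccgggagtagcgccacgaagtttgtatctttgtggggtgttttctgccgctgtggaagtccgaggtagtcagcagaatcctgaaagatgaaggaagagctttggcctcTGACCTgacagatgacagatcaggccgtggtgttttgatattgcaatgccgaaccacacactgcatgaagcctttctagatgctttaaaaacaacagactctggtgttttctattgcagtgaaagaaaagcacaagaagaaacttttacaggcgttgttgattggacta
Per1 (chr11:69098699-69098998, plus strand, the first of 2 starts): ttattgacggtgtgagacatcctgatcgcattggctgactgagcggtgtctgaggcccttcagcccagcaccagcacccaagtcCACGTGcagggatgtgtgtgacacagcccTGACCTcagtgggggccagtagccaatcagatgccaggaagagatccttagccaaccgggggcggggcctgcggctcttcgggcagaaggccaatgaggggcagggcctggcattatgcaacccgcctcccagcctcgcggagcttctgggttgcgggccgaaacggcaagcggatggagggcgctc
Per3 (chr4:151044616-151044915, minus strand): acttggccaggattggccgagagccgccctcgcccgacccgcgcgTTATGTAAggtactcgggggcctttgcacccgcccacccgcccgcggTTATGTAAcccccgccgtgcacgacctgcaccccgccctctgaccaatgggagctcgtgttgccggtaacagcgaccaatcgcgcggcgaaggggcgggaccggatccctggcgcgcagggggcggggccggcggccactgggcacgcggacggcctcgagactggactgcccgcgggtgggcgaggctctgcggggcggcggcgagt
Cry2 (chr2:92434020-92434319, minus strand): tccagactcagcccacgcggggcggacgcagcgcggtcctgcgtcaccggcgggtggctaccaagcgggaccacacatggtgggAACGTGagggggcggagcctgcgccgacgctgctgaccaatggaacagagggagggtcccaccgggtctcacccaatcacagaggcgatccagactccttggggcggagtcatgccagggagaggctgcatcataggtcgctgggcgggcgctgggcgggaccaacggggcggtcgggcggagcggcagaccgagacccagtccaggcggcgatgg
Nr1d2 (chr14:18239057-18239356, minus strand): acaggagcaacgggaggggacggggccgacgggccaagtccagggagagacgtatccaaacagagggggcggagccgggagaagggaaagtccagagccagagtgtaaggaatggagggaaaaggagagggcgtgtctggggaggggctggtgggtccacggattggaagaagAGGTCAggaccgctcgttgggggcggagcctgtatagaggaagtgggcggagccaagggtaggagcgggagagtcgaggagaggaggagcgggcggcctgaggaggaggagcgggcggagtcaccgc

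In these windows Arntl has the half-site AGGTCA with its first letter at base 32 after the start, and Clock has it on the opposite strand, beginning 119 bases before its start. Per1 has a CACGTG beginning 166 bases before its start and, 137 bases before it, a half-site on the opposite strand. Per3 has the D-box TTATGTAA at both 205 and 158 bases before its start. Cry2 has the E-box variant on the opposite strand 166 bases before its start, and Nr1d2 has AGGTCA 77 bases before. Among the 32851 windows of all genes, 7.15% held CACGTG, 4.68% its variant, 16.3% the half-site, 0.938% TTATGTAA, 0.119% TTACGTAA and 1.79% TGACGTCA, so the half-site and the E-box are common sequences and the D-box of Per3 is a rare one.

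The first question was how the clock genes differed between liver fasted for 24 h and fed liver. Because no separate hour of killing is given for the fed mice, fasting and time of day cannot be told apart here. Averaged over both genotypes, the activator genes Arntl, Npas2 and Clock and the repressor gene Per1 rose, while Per3, Cry2 and Nr1d2 fell. Npas2 was 2.25-fold, Arntl 2.04-fold, Per1 1.84-fold and Clock 1.18-fold higher in fasted liver. Per3 was 2.30-fold, Nr1d2 1.49-fold and Cry2 1.44-fold lower. Per2 (log2 difference -0.44) and Cry1 (0.25) did not pass the test. Thus 7 of 9 members were called by limma at an adjusted p under 0.05, against 18.3% of all genes tested in this comparison, with 4 called higher (8.40% of all genes) and 3 called lower (9.88%).

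**Figure D1:**
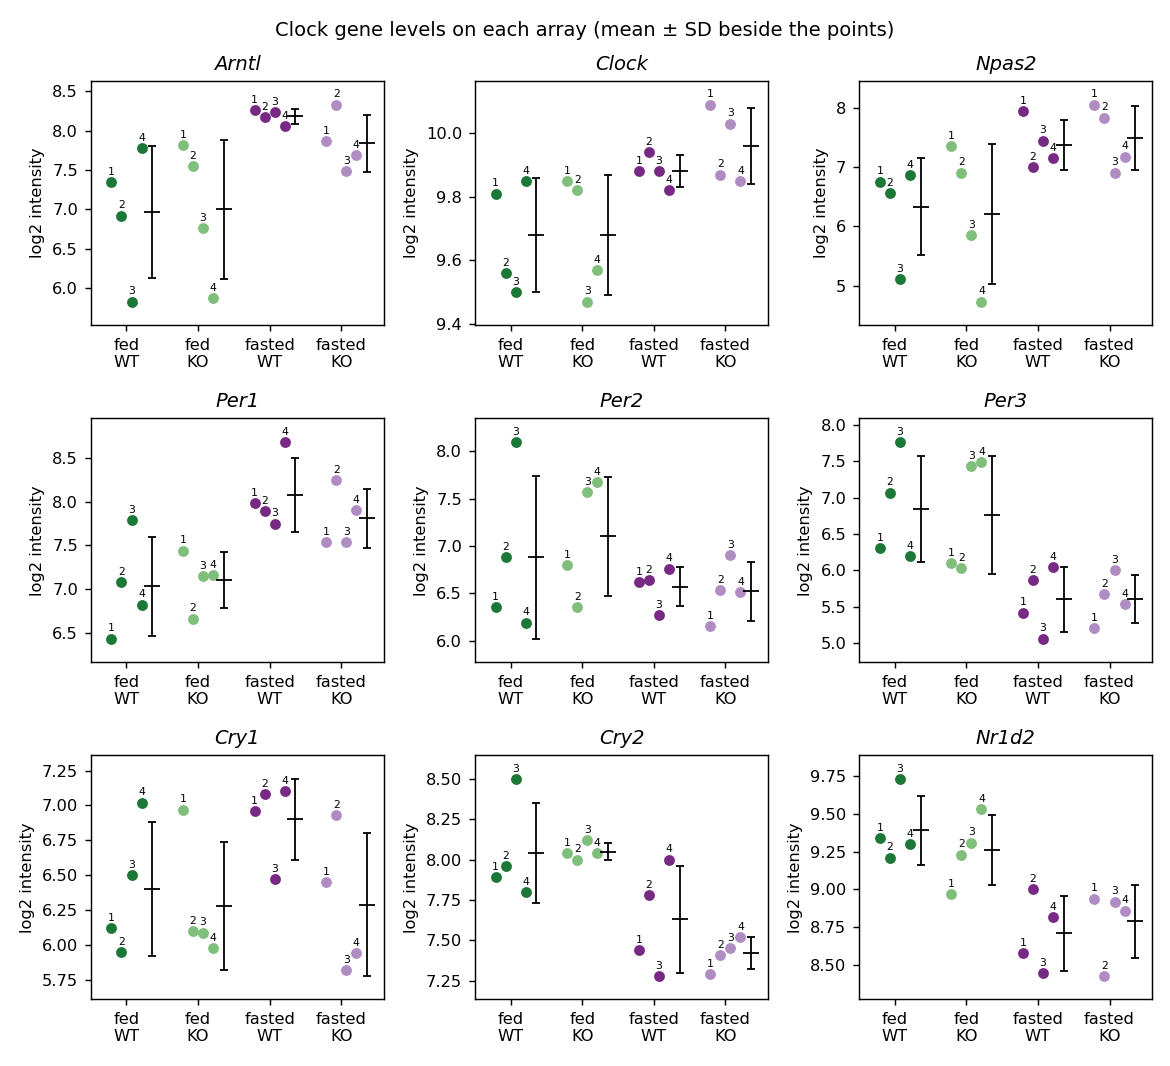
Levels of the 9 measured clock genes on each of the 16 arrays, as log2 intensity on the vertical axis of a panel (axes do not start at 0 and differ between panels), with arrays numbered by their title number and the group mean ± SD (n = 4) drawn beside the points. Arntl and Npas2 spread widely in the fed groups, with Arntl from 5.83 to 7.82, and lie higher on average in the fasted groups.

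Arntl encodes BMAL1, the partner that every activating complex of the clock needs. Its level was 7.35, 6.92, 5.83 and 7.78 on fed WT 1 to 4, and 8.26, 8.17, 8.24 and 8.06 on fasted WT 1 to 4. On fed KO 1 to 4 it was 7.82, 7.55, 6.76 and 5.87, and on fasted KO 1 to 4 it was 7.87, 8.33, 7.49 and 7.69. All fasted wild type arrays lay above all fed ones, whereas fasted KO 3 and 4 lay below fed KO 1. The averaged rise was 1.03 (SE 0.27, limma adjusted p = 0.0131), within wild type it was 1.22 (SE 0.38, adjusted p = 0.0653) and within knockout 0.84 (SE 0.38, adjusted p = 0.204). Neither genotype alone passed the threshold.

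Npas2, the alternative partner of BMAL1, covered the widest range of levels of the 9 genes. It lay at 6.76, 6.58, 5.11 and 6.87 on fed WT 1 to 4 and at 7.95, 7.0, 7.45 and 7.15 on fasted WT 1 to 4. The knockout arrays gave 7.37, 6.91, 5.85 and 4.73 when fed and 8.06, 7.84, 6.92 and 7.18 when fasted. The wild type groups did not overlap and the knockout groups did, through fed KO 1. The averaged rise was 1.17 (SE 0.34, limma adjusted p = 0.0228), with 1.06 in wild type (adjusted p = 0.216) and 1.28 in knockout liver (adjusted p = 0.111). The averaged call ended without fasted KO 1 (log2 difference 1.08, limma adjusted p = 0.0526), with a robust variance prior, which drops no array (adjusted p = 0.0523), and when the 3 arrays with a name ending in 2 were left out (adjusted p = 0.0851).

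Clock, which encodes the usual partner of BMAL1, had the smallest averaged difference of the 9 genes. The fed arrays ranged from 9.47 to 9.85 and the fasted arrays from 9.82 to 10.09, overlapping in both genotypes. The averaged difference was 0.24 (SE 0.07, limma adjusted p = 0.0270). This call was lost without any 1 of 7 arrays (fasted WT 2, fasted KO 1 and 3, fed WT 2 and 3, fed KO 3 and 4), with limma adjusted p up to 0.0607, and the difference ran from 0.21 to 0.27 as each of the 16 arrays was left out in turn. It was also lost without the 3 arrays with a name ending in 2 (log2 difference 0.18, limma adjusted p = 0.162). The same held without fasted WT 4 and fed KO 4 together (adjusted p = 0.0609).

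The period genes encode the PER proteins of the repressor complex, and they did not move together. Per1, which also answers directly to hormones and other acute signals, rose in wild type liver from 7.03 ± 0.57 to 8.08 ± 0.42 (SD, n = 4), 2.07-fold (log2 difference 1.05, SE 0.26, limma adjusted p = 0.0195). Its fed wild type arrays were at 6.43, 7.08, 7.79 and 6.83 and its fasted ones at 7.99, 7.89, 7.76 and 8.69, overlapping only through fed WT 3 and fasted WT 3. The wild type call ended without fasted WT 4, fed WT 1 or fed WT 4 (limma adjusted p up to 0.0723). Fasted WT 4, the array with the pancreatic transcripts, had the highest Per1 level of all 16, and without it the log2 difference was 0.85. In knockout liver Per1 went from 7.10 ± 0.32 to 7.81 ± 0.34 without overlap between the groups, but the difference of 0.71 (SE 0.26) had an adjusted p of 0.104.

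Per3 had the largest fall of the 9 genes in each genotype. On fed WT 1 to 4 it lay at 6.31, 7.07, 7.77 and 6.20, and on fasted WT 1 to 4 at 5.42, 5.87, 5.06 and 6.04. Fed KO 1 to 4 were at 6.10, 6.03, 7.44 and 7.49, and fasted KO 1 to 4 at 5.21, 5.67, 6.00 and 5.54. No fasted array reached a fed array of its own genotype. Averaged over the genotypes the fall was -1.20 (SE 0.26, limma adjusted p = 0.00378), while the separate differences of -1.24 (adjusted p = 0.0506) in wild type and -1.16 (adjusted p = 0.0608) in knockout liver missed the threshold.

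Per2 encodes another PER protein of the same complex, and its fed and fasted arrays overlapped in both genotypes. Fed wild type arrays ran from 6.19 to 8.10 and fasted ones from 6.27 to 6.76, and in knockout liver fed arrays ran from 6.35 to 7.67 and fasted ones from 6.15 to 6.90. The wild type difference was -0.31 (95% interval -1.04 to 0.42, adjusted p = 0.669) and turned to 0.095 without fed WT 3. In the knockout it was -0.58 (95% interval -1.30 to 0.15, adjusted p = 0.359).

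The cryptochrome genes, whose products are the direct blockers of the BMAL1 complex, also differed from each other. Cry2 fell in knockout liver from 8.05 ± 0.05 to 7.42 ± 0.10 (SD, n = 4), with fed arrays at 8.04, 8.00, 8.12 and 8.04 and fasted arrays at 7.29, 7.41, 7.45 and 7.52. The groups did not overlap and the log2 difference was -0.63 (SE 0.15, limma adjusted p = 0.0116), or 1.55-fold lower. Wild type levels were 8.04 ± 0.31 fed and 7.63 ± 0.33 fasted, a difference of -0.41 with adjusted p = 0.111, where fasted WT 4 at 8.00 lay inside the fed range. Cry1 was at 6.40 ± 0.48 in fed and 6.90 ± 0.29 in fasted wild type liver, and at 6.28 ± 0.46 and 6.29 ± 0.51 in the knockout (adjusted p = 0.307 and 0.996).

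Nr1d2 encodes REV-ERBβ, the repressor of the second clock loop. In wild type liver it fell from 9.39 ± 0.23 to 8.71 ± 0.25 (SD, n = 4), with fed arrays at 9.34, 9.21, 9.73 and 9.30 and fasted arrays at 8.58, 9.00, 8.45 and 8.82. The groups did not overlap, and the fall was 1.61-fold (log2 difference -0.68, SE 0.15, limma adjusted p = 0.0104). Fed and fasted knockout arrays did not overlap either, at 8.97 to 9.53 fed and 8.43 to 8.94 fasted, with a difference of -0.47 (SE 0.15, adjusted p = 0.0629).

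**Figure D2:**
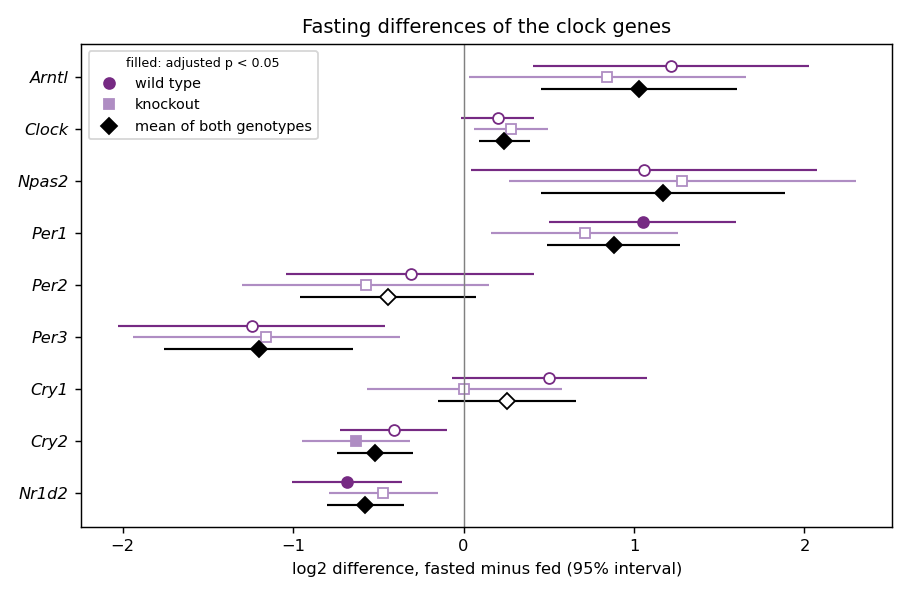
Log2 difference between fasted and fed liver for each of the 9 genes (horizontal axis, with 95% intervals from the limma fit), in wild type, in knockout and averaged over both; filled symbols had an adjusted p under 0.05. Npas2, Arntl, Per1 and Clock lie to the right of 0 and Per3, Cry2 and Nr1d2 to the left for the average, while Per2 and Cry1 have intervals that include 0.

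Within a single genotype fewer members passed. By limma 2 of 9 (Per1 higher, Nr1d2 lower) were called in wild type liver, where 7.61% of all genes were called, 3.34% higher and 4.27% lower. In knockout liver 1 of 9 (Cry2 lower) was called, where 9.42% of all genes were, 4.89% lower. At an unadjusted p under 0.05 there were 6 members in wild type liver (21.2% of all genes), 7 in knockout liver (22.1%) and 7 for the average (30.4%). The averaged comparison uses the arrays of both and is not independent of them. Arrays of fasted and fed liver did not overlap for 4 of 9 members in wild type (Arntl and Npas2 higher, Per3 and Nr1d2 lower; 12.4% of all genes did not overlap) and for 4 of 9 in the knockout (Per1 higher, Per3, Cry2 and Nr1d2 lower; 17.0% of all genes). The median log2 difference of the members was 0.24 for the average against 0.02 over all genes, a value that hides opposite movements.

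The array names carry a position code of 5 or 7, which splits every group evenly into 2 and 2 arrays. Within code 5 and within code 7 the averaged fasting differences were 1.03 and 1.03 for Arntl, 1.32 and 1.02 for Npas2, 0.31 and 0.17 for Clock, and 0.50 and 1.26 for Per1. For the genes that fell they were -1.48 and -0.92 for Per3, -0.77 and -0.27 for Cry2, and -0.62 and -0.54 for Nr1d2. The 7 called genes kept their direction within each code, and so did Per2 (-0.72 and -0.16) and Cry1 (0.01 and 0.50), which were not called. The calls were made on these same arrays, so the values by code are a description and not a second test.

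The second question was whether the loss of vanin-1 altered the clock genes. By limma 0 of 9 members differed between knockout and wild type in fed liver (0.00531% of all genes did) and 0 of 9 in fasted liver (0.0159%). At an unadjusted p under 0.05 there were 0 members in fed and 1 in fasted liver, against 5.76% and 5.49% of all genes. The arrays of the genotypes separated without overlap for 0 of 9 members in fed liver (3.12% of all genes) and 0 of 9 in fasted liver (3.15%). In fed liver the differences lay between -0.14 for Nr1d2 and 0.22 for Per2, and the 95% intervals were as narrow as -0.21 to 0.22 for Clock and as wide as -1.13 to 0.90 for Npas2. The interval of Npas2 thus leaves room for sizeable differences in either direction, and a p that misses the threshold does not show that the genotypes are alike.

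Cry1 was the member with an unadjusted p under 0.05 in fasted liver. Its fasted wild type arrays were at 6.96, 7.08, 6.47 and 7.10 and its fasted knockout arrays at 6.45, 6.93, 5.82 and 5.94, overlapping through fasted WT 3 and fasted KO 2. The knockout minus wild type difference was -0.61 on the log2 scale (SE 0.27, limma unadjusted p = 0.0368, adjusted p = 0.884), which did not pass the test. Arntl differed by -0.34 (95% interval -1.15 to 0.47) and Per1 by -0.27 (-0.82 to 0.28) in the same comparison.

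Whether the genotypes responded differently to fasting was tested with the interaction term. By limma 0 of 9 members passed, as did 0% of all genes, and at an unadjusted p under 0.05 there were 0 members and 4.91% of all genes. The largest terms were -0.50 for Cry1 (95% interval -1.31 to 0.31, adjusted p = 0.948) and -0.37 for Arntl (-1.52 to 0.78, adjusted p = 0.978). A call in one genotype and not in the other, as for Per1, Cry2 and Nr1d2, was therefore not shown to be a difference between genotypes.

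Beyond the group means, the arrays of a group differed from each other in a patterned way. Fed WT 3 had the lowest Arntl (5.83) of its group together with the highest Per1 (7.79), Per2 (8.10), Per3 (7.77), Cry2 (8.5) and Nr1d2 (9.73). Fed KO 4 had the lowest Arntl (5.87) and Npas2 (4.73) of its group with the highest Per2 (7.67), Per3 (7.49) and Nr1d2 (9.53), and fed KO 3 came next to it on Arntl, Npas2, Per2, Per3 and Nr1d2. Fed WT 4 and fed KO 1 had the highest Arntl (7.78 and 7.82), Npas2 (6.87 and 7.37) and Cry1 (7.02 and 6.97) of their groups. Fed WT 4 also had the lowest Per2 (6.19) and Per3 (6.20) of its group, whereas on the knockout side these were lowest on fed KO 2 (6.35 and 6.03). Per1 did not follow the same order, since its highest fed knockout level (7.44) was on fed KO 1.

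**Figure D3:**
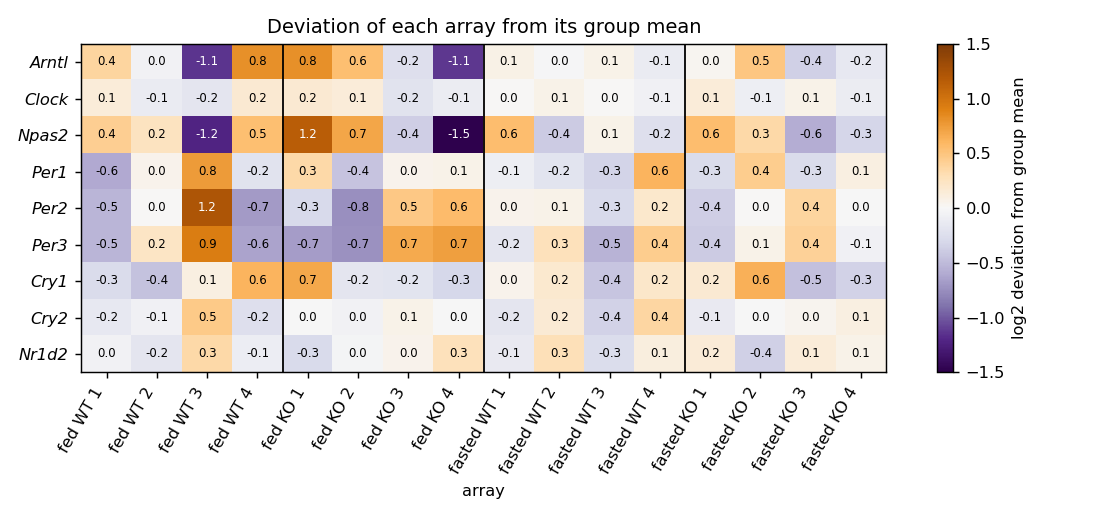
Deviation of each array (columns) from the mean of its group for each clock gene (rows), in log2 units, with vertical lines between the 4 groups; orange is above and purple below the group mean. Fed WT 3 and fed KO 4 are purple for Arntl (-1.14 and -1.13) and Npas2 (-1.22 and -1.48) and orange for Per2 (1.22 and 0.57) and Per3 (0.93 and 0.73).

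The spread was measured as the SD within a group. Arntl had an SD of 0.84 in fed wild type and 0.88 in fed knockout liver, larger than 99.6% and 99.7% of all genes, but of 0.09 and 0.36 in the fasted groups. Npas2 had 0.82 and 1.18 fed, and 0.42 and 0.54 fasted. Per2 went from 0.86 and 0.63 fed to 0.21 and 0.31 fasted, and Per3 from 0.73 and 0.81 to 0.45 and 0.33. The fed SD was above the fasted SD in both genotypes for 5 of 9 members (these 4 and Clock), in wild type only for 2 (Per1 and Cry1), and in neither for 2 (Cry2 and Nr1d2). The median SD of the 9 members was 0.57 and 0.46 in the fed groups and 0.29 and 0.33 in the fasted groups, against 0.14 and 0.13 fed and 0.14 and 0.12 fasted over all genes. The differences in spread were not tested.

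How the members varied together was examined after removing the group means, so that differences between those means did not enter. Groups with a wider spread still weigh more in these correlations. Of 36 pairs of genes, 17 had a Benjamini-Hochberg adjusted p under 0.05 (two-sided permutation test within groups, 16 arrays, 100000 resamples), 6 with a positive and 11 with a negative correlation. By rank correlation 13 pairs passed, all 13 of them among those 17. The genes were listed with earlier results of these data known, so these p-values describe this set of arrays. The number of pairs rested heavily on fed WT 3, without which 5 passed, and fell to 11 without fasted WT 4.

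The positive pairs joined activators with each other or targets with each other. Per2 with Per3 had r = 0.94 and rho = 0.94 (permutation p = 3e-05 for both, adjusted 0.00108), and r was 0.94 without the 2 arrays farthest from the median of Per2. The 2 partners Arntl and Npas2 had r = 0.93 and rho = 0.89 (permutation p = 2.5e-04 and 7.2e-04, adjusted 0.00225 and 0.00900), and r = 0.83 without fed WT 3 and fed KO 4. Per2 and Per3 correlated with Cry2 at r = 0.70 and 0.71 (both permutation p adjusted to 0.00225; rho 0.66 and 0.65, adjusted 0.0158 and 0.0162), and at 0.56 and 0.64 without the 2 farthest arrays. These 4 pairs also passed without fed WT 3, Per2 with Cry2 then at r = 0.43. Per3 with Nr1d2, at r = 0.615 (permutation p adjusted to 0.0462), lost its call without any 1 of 13 arrays.

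The negative pairs set the activators against their targets, but those of Clock passed by r only. Clock with Per2, Per3 and Cry2 had r = -0.77, -0.80 and -0.48 (permutation p adjusted to 0.0315, 0.0342 and 0.0306). By rank correlation they did not pass (permutation p adjusted to 0.0684, 0.0584 and 0.0737). Their calls by r were lost without any 1 of 5, 5 and 6 arrays. Arntl with Per2 had r = -0.87 and rho = -0.81 (permutation p adjusted to 0.0136 and 0.0229), Arntl with Per3 -0.85 and -0.89 (adjusted 0.0112 and 0.00900), and Arntl with Nr1d2 -0.73 and -0.72 (adjusted 0.0106 and 0.0158). Without fed WT 3 and fed KO 4 these r were -0.76, -0.77 and -0.57. Npas2 with Per3 had r = -0.86 and rho = -0.87 (permutation p adjusted to 0.00619 and 0.00900), and -0.80 without the same 2 arrays. When fed WT 3 alone was left out, Npas2 with Per3 kept its call (adjusted p = 0.0421), and the Arntl pairs with Per2, Per3 and Nr1d2 lost theirs (adjusted 0.0991, 0.0704 and 0.0642).

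Among the 8 fed arrays alone r was 0.97 for Arntl with Npas2, -0.91 for Arntl with Per2 and -0.94 for Arntl with Per3, and among the 8 fasted arrays it was 0.69, -0.42 and -0.35. The median size of r over the 17 pairs was 0.88 in fed and 0.58 in fasted liver. All 17 had the same sign in the fasted arrays as over all 16 arrays, although fasted r was only -0.145 for Clock with Per3. The 17 pairs were chosen on all 16 arrays, fasted ones included, and groups with a wider spread weigh more in that choice. The shared sign and the higher fed median are thus partly built in, and are a description and not a second test. Within position code 5, r of Arntl with Npas2, Per2 and Per3 was 0.94, -0.95 and -0.96. Within code 7 it was 0.94, -0.94 and -0.92. Each code holds only 2 arrays of a group, whose deviations from their mean mirror each other. These r thus rest on a single difference per group and say little about strength. Cry1 and Per1 had the fewest called pairs. Per1 with Per2 (r = 0.65) and Per1 with Clock (r = -0.59) narrowly missed the threshold (permutation p adjusted to 0.0573 for both). Cry1 was in none of the 17 pairs (r = 0.49 with Arntl, rho = 0.52, permutation p = 0.114 and 0.0657, adjusted 0.164 and 0.0985, and r = 0.67 without the 2 farthest arrays), and Per1 in 1, with Cry2 (r = 0.73, rho = 0.66, permutation p adjusted to 0.0274 and 0.0405, and r = 0.39 without fasted WT 4 and fed WT 3).

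**Figure D4:**
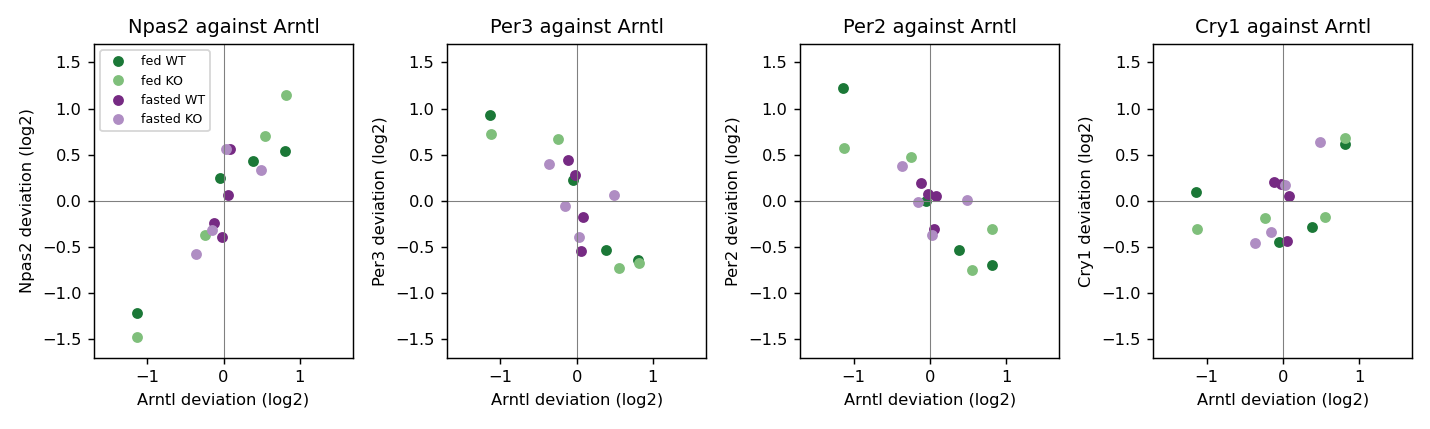
Deviations of Npas2, Per3, Per2 and Cry1 from their group means (vertical axes, log2) against that of Arntl (horizontal axes, log2), 1 point for each of the 16 arrays. Npas2 rises with Arntl (r = 0.93), Per3 and Per2 fall (r = -0.85 and -0.87), and fed arrays make up both ends of each plot.

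Acute phase transcripts, which were high on fed KO 4 (12.59) and fed KO 1 (10.54), did not follow this order. Arntl was the lowest of the group on the first and the highest on the second, and fed WT 3, with the other very low Arntl level, had an acute phase mean of 8.73. The part of the acute phase in the values of fed KO 4 was not tested. Without fed KO 4 the averaged fasting rise of Arntl was 0.84 (limma adjusted p = 0.0210).

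Genes whose group-centred values ran closest to a member over the 16 arrays were looked up among 9208 other genes above the median level, as a description without a test. For Arntl these were Syne1 (r = 0.94) and Stxbp2 (0.90), for Npas2 Tm4sf1 (0.93) and Lgalsl (0.88), and for Clock Net1 (0.90) and Esrp2 (0.86). Per2 was nearest to Slc5a6 (0.93), a vitamin transporter gene, and to Tef (0.88), a D-box binding factor of the clock output. Per3 was nearest to Calr (0.90) and again to Slc5a6 (0.88). Cry1 ran with Chd9 (0.89) and Med26 (0.87), and Cry2 with Syde2 (0.93) and P2ry2 (0.89). Per1 ran with Nsf (0.84) and Trim39 (0.84), and Nr1d2 with Igsf5 (0.96) and Usp40 (0.89). Without centring, r with Nr1d2 was 0.321 for Igsf5 and -0.289 for Usp40. It lay between 0.537 and 0.925 for the other genes named here with their members. These genes are the highest of 9208 for each member, so the size of r is not evidence of a link.

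Around the core, 21 of 24 listed clock genes of other kinds were measured: output factors, further receptors, kinases and F-box proteins. Averaged over the genotypes 2 rose, 3 fell and 16 did not pass (limma), where 8.40% of all genes were called higher and 9.88% lower, so these counts lie near the shares over all genes. The median log2 difference of the list was 0.01 against 0.02 over all genes. Those that fell were Bhlhe40 (2.82-fold lower, limma adjusted p = 3.11e-06), Bhlhe41 (at least 2.46-fold lower in wild type and at least 2.93-fold lower in knockout liver, averaged adjusted p = 5.70e-04; its fasted means of 4.43 and 4.53 lay below the median of every array, so the folds are lower bounds) and Tef (-0.66, adjusted p = 0.00348), and for all of them no fasted array reached a fed one. Over both genotypes the fasted and fed arrays did not overlap for 4.73% of all genes. DEC1 and DEC2, made from Bhlhe40 and Bhlhe41, repress through E-boxes like the PER and CRY proteins. Nfil3, whose product represses at D-boxes, rose by 0.50 (adjusted p = 0.0197), and the coactivator gene Ppargc1a by 1.16 (adjusted p = 3.53e-04). No kinase or F-box gene of the list passed. Ciart, a repressor gene singled out here after its values were seen, lay at 8.32, 8.51 and 7.87 on fed WT 3, fed KO 3 and fed KO 4 and between 5.78 and 6.95 on the other fed arrays, and at 8.38 on fasted WT 4 against 5.46 to 6.54 on the other fasted arrays. By genotype 0 of these 21 genes passed in fed liver and 0 in fasted liver.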

How the data were processed

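Liver RNA of 16 samples was read on 1-colour whole-transcript arrays. The deposited values are log2 intensities made with RMA, per the submitters' processing notes. RMA normalizes arrays to a common distribution, so a change shared by all genes would not be seen. Of 35556 probe sets, 21218 carried 1 gene symbol in the platform annotation, 1881 several, and 12457 were not in the table used; 18820 genes remained after keeping the probe set with the highest mean for each. No value was imputed and no sample dropped. With arrays, the number of samples limits the precision.

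Groups were compared with limma 3.58.1 in R 4.3.3, in 1 fit of all 4 groups with Benjamini-Hochberg adjustment over all genes (adjusted p under 0.05). Pairs of members were compared on group-centred values by permutation within groups (Python 3.11.15, numpy 2.4.6, scipy 1.17.1), with 100000 resamples. The steps were tested on simulated data. The members and lists were chosen with earlier results of these data known. Named genes were all members, Vnn1, every called gene of the list of other clock genes, and the 2 genes most like each member. Ciart, the marker genes named and the genes of the feeding and hormone list fall outside this rule and were named after their values were seen. Title numbers do not pair the arrays: same-numbered arrays correlated at -0.22 to 0.21 (median 0.01), with 4 of 24 over 0.1. Alternatives covered scaling, filters on dim genes, variance priors, weights, blocks, thresholds and arrays left out. Nr1d1 has no value because its probe sets are shared.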

Additional observations from a re-analysis of the deposited data

Results flagged for a closer look

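In 3 of 36 gene and group combinations, 1 array lay far from the other 3 by Dixon's criterion at 95%, which chance meets in about 1 in 20. Npas2 was 5.11 on fed WT 3 against 6.58 to 6.87 on the other fed wild type arrays. Cry1 was 6.97 on fed KO 1, where the other fed knockout arrays lay between 5.98 and 6.10. Nr1d2 was 8.43 on fasted KO 2, against 8.86 to 8.94 on the other fasted knockout arrays.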

How the results depend on the processing

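Over 45 results on single genes or pairs, 1097 of 1233 comparisons with an alternative kept direction and side of the threshold, 99 lost the call, 28 gained it and 9 changed sign. The averaged calls of Per1, Per3, Cry2 and Nr1d2 held under every alternative run. Members called in wild type liver (2) became 4 without genes below the 50th percentile, 1 with only the groups compared, 1 without the 3 arrays whose name ends in 2, 0 at an adjusted p under 0.01, and 2 to 4 with 1 array left out. Those called in knockout liver (1) became 2 and 3 without genes below the 30th and 50th percentile, 2 with only the groups compared, 0 without the 3 arrays, 0 at 0.01, and 1 to 4 with 1 array left out. The averaged count (7) became 4 without the 3 arrays, 4 at 0.01 and 5 to 7 with 1 array left out. Without the 3 arrays Arntl had an adjusted p of 0.0598 (limma). Called pairs (17) fell to 11 without fasted WT 4 and fed KO 4, and ran from 5 to 19 with 1 array left out. The replicate block left 2 pairs, Arntl with Npas2 and Per2 with Per3, and called 3 members in wild type, 1 in knockout and 7 averaged. The fasting difference of Cry1 in knockout liver (0.004) was -0.148 with array weights, -0.153 without the 3 arrays, -0.098 without fasted WT 4 and fed KO 4, and -0.21 to 0.232 with 1 array left out. That of Per2 in wild type (-0.311) ran from -0.541 to 0.095, the last without fed WT 3. No genotype or interaction count of members left 0 under any alternative. Apart from those built from fewer genes or arrays, the cause was not tested.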

Other observations

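A further list held receptors, responders and metabolic targets of the feeding and hormone signals known to act in liver. Averaged over the genotypes 9 of its 16 measured genes rose (8.40% of all genes did), 1 fell (9.88%) and 6 did not pass (limma). These 6 were Dusp1 (log2 difference 0.06, adjusted p = 0.876), Fos, Egr1, Creb1, Crem and Insr. The insulin-repressed genes Igfbp1 (log2 difference 2.30), Irs2 (0.92), G6pc (0.58) and Pck1 (0.41) rose. So did Fkbp5 (1.13), Tsc22d3 (0.53), Txnip (0.69) and the chaperone genes Hsp90aa1 (0.54) and Hspa8 (0.22). The adjusted p of these 9 genes ran from 1.02e-04 for Igfbp1 to 0.0200 for Tsc22d3. By limma 5 genes of the list rose within wild type liver (3.34% of all genes did) and 4 within knockout liver (4.53%). Fkbp5 and Tsc22d3 did not pass within knockout liver (limma adjusted p = 0.170 and 0.473). Nr3c1, the glucocorticoid receptor gene, fell by 0.39 (adjusted p = 1.21e-04), and no fasted array reached a fed one (4.73% of all genes did not overlap).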
